A study of Mus musculus with 2 samples.

Results

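Keratins and the proteins of the desmosome form the filament and junction system of epithelial cells, and 30 genes of this system were read in the mouse uterus. Members were every table row whose symbol names a keratin (Krt and a number), a desmocollin (Dsc), a desmoglein (Dsg), desmoplakin (Dsp), plakoglobin (Jup), a plakophilin (Pkp), periplakin (Ppl) or envoplakin (Evpl). The rule took 30 of 14678 genes, of which 20 were keratins and 10 were desmosomal or envelope genes. It used no measured value. The uteri came from mated females at gestation day 2.5, before implantation. All carried tet operator alleles of VEGF and a transgene for the tetR-Krab repressor, written as VEGFtetO/tetO/beta-AKtg/wt. The Dox+ library came from females kept on doxycycline chow, labelled VEGF-normal (wild type). The Dox- library came from littermates without doxycycline, labelled VEGF-repression. Each library pooled 3 uteri and 6 µg of total RNA. The Dox+ control therefore carried the same alleles as the Dox- females. The repressor is driven by the beta-actin promoter, so repression was not limited to 1 cell type. Doxycycline and the VEGF level changed together and cannot be told apart here.

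Keratins are the intermediate filament proteins of epithelia. A filament is built from pairs of a type I keratin, such as Krt18 or Krt19, and a type II keratin, such as Krt8 or Krt7. Simple epithelia, which are single-layered like the lining of the mouse uterus, use Krt8, Krt18, Krt19 and Krt7. Stratified epithelia and hair use other members of the family. Desmosomes are spot-like junctions that tie the filaments of neighbouring cells together. Their cadherins (desmogleins and desmocollins) reach across the gap between cells. Inside the cell, plakoglobin and the plakophilins bind the cadherin tails, and desmoplakin joins this plaque to the keratin filaments.

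The Dox+ library held 5985925 clean tags and the Dox- library 5844314. The copies of all listed genes made up 74.1% and 72.2% of them. A copy is 1 tag assigned to a gene, and levels are given in TPM, here the copies of a gene for every 1000000 clean tags. With 1 library per condition there was no test between conditions. Intervals are exact 95% intervals for counting error only, and a difference outside them is a difference between these 2 libraries. Genes with at least 200 combined copies in both libraries together were compared, and a level at least 1.5-fold apart was counted as higher or lower. Of 6547 such genes 15.2% were higher and 14.7% were lower in Dox-, with a median log2 ratio of 0.03. Vegfa, the repressed gene, had 247 copies in Dox+ and 125 in Dox-. It was 1.93-fold lower in Dox- (1.55 to 2.41).

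Of the 30 members, 10 had at least 200 combined copies. Of these 10, 6 were higher in Dox- (Krt85, Krt7, Dsp, Pkp2, Pkp4 and Dsg2), against a background of 15.2% of all genes compared. None of the 10 was lower, against a background of 14.7%. At 2-fold, 5 of the 10 were higher, against 4.61% of all genes, and none was lower, against 5.62%. The median log2 ratio of the 10 was 0.97, with quartiles of -0.36 and 0.40 over all genes compared. A gene that is low in 1 library could reach 200 combined copies through the other alone. Krt85 (2 and 451 copies in Dox+ and Dox-), Krt7 (179 and 600) and Pkp4 (197 and 400) did so through Dox-. So did Dsp (98 and 238) and Dsg2 (129 and 233). Ppl, 2.13-fold lower in Dox- with 133 and 61 copies, stayed out at 194. In whole uterus, fewer cells of a type and less RNA per cell cannot be told apart. The summed level of all 30 members was 835 TPM in Dox+ and 1227 in Dox-.

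**Figure D1:**
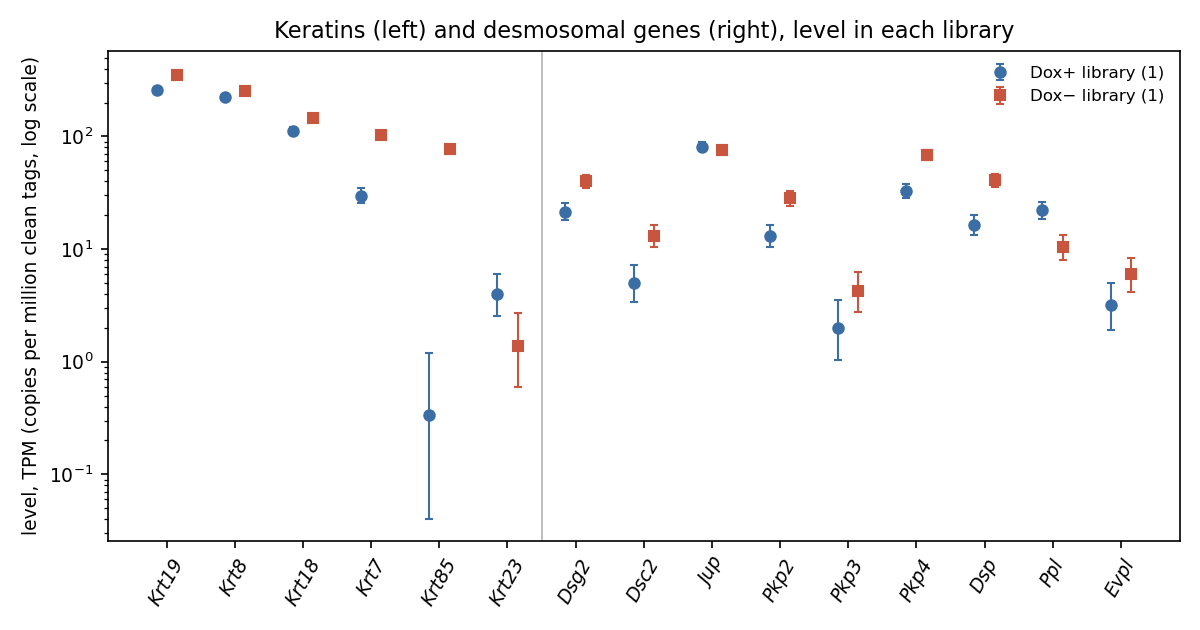
Level of 15 members in TPM (vertical axis, log scale), with keratins left of the line and desmosomal genes right of it; circles are the Dox+ library, squares the Dox- library and bars the 95% counting intervals. Krt85 went from 0.334 in Dox+ to 77.2 in Dox-, while Ppl and Krt23 had lower levels in Dox- than in Dox+. The intervals of Jup in the 2 libraries overlapped.

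The simple-epithelial keratins Krt19, Krt8 and Krt18 were the most abundant members in both libraries. Krt19, a type I keratin of simple epithelia, had 1554 copies in Dox+ and 2046 in Dox-. Its level was 259.6 TPM (246.9 to 272.8) and 350.1 (335.1 to 365.6). It was 1.35-fold higher in Dox- (1.26 to 1.44), under the 1.5-fold limit but with an interval above 1. Krt8, the type II keratin of simple epithelia, had 1330 and 1481 copies. Its ratio of 1.14 (1.06 to 1.23) was the smallest of the keratins compared. Krt18, its usual type I partner, had 675 and 856 copies and a ratio of 1.30 (1.17 to 1.44). Summed over these 3 genes, the level was 594.6 TPM in Dox+ and 750.0 in Dox-, a ratio of 1.26 (1.21 to 1.32). There were 1.97 copies of Krt8 for each copy of Krt18 in Dox+ (1.79 to 2.16) and 1.73 in Dox- (1.59 to 1.88). In build NCBIM37, Krt19 lies at chr11:100002124-100009979 on the minus strand. Krt8 (chr15:101827142-101834773, minus strand) and Krt18 (chr15:101858647-101862457, plus strand) are neighbours on chromosome 15, with 23873 bp between them.

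Krt7, the type II keratin of many glandular and ductal epithelia, differed more than Krt8. It had 179 copies in Dox+ and 600 in Dox-, or 29.9 and 102.7 TPM. It was 3.43-fold higher in Dox- (2.90 to 4.08), and only 75 of the 6547 genes compared had a larger ratio. Krt7 lies on the same chromosome as Krt8 and Krt18, at chr15:101241474-101260744 on the plus strand (NCBIM37).

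The promoters of these 3 keratins are shown because the genes share a chromosome and a tissue, but Krt7 differed in ratio from Krt8 and Krt18. The ratio intervals of Krt8 and Krt18 overlapped. Each line gives the 250 bases before the start from RefSeq on build GRCm38.p6, 5′ to 3′ on the gene's own strand. Short motifs were searched on both strands. The TATA box was searched as TATAAA and the AP-1 site as TGANTCA. The GC box was searched as GGGCGG, and the box bound by NF-Y as CCAAT. Capitals mark the matches, and CCGCCC is GGGCGG on the other strand. The positions are chr15:101412153-101412402 for Krt7 (plus strand), chr15:102004343-102004592 for Krt8 (minus strand) and chr15:102027966-102028215 for Krt18 (plus strand).
Krt7: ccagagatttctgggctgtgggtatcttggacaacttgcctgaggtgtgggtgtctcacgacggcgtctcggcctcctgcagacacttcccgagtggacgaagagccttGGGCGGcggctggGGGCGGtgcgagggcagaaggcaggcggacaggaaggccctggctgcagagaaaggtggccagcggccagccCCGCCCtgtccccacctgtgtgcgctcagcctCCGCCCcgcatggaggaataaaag
Krt8: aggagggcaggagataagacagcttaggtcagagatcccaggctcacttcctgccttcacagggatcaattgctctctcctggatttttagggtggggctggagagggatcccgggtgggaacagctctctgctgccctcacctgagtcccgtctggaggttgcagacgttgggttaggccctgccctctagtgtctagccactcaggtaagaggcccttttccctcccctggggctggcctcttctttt
Krt18: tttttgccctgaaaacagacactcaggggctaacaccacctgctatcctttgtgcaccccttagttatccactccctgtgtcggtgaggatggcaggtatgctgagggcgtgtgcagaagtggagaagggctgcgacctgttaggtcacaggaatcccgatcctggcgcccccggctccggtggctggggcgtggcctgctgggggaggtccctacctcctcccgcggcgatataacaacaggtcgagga
The Krt7 window held GGGCGG 4 times, the nearest 24 bases before the start, and 66.0% of its bases were G or C. The Krt8 and Krt18 windows held none of the 4 motifs, with 58.0% and 60.4% G or C. Over 32851 promoters of the same length, GGGCGG was found in 32.7%, CCAAT in 33.8%, TATAAA in 12.4% and TGANTCA in 6.75%. The median G or C share of all promoters was 52.4%. A match is a description of these letters and not a shown binding site.

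Krt85, a type II keratin known from the hair shaft, had the most unequal counts of all members. It had 2 copies in Dox+ and 451 in Dox-, or 0.334 TPM (0.0405 to 1.21) and 77.2 (70.2 to 84.6). The ratio was 231 with a counting interval of 63.6 to 1913. The wide interval comes from the 2 copies in Dox+, and with 3 copies in their place the ratio was 154. None of the 6547 genes compared had a larger ratio. In Dox- the level of Krt85 overlapped that of Jup, the most abundant desmosomal gene. The other 4 hair keratins analysed, Krt32, Krt35, Krt36 and Krt84, had 16 copies together in Dox+ and 9 in Dox-, a ratio of 0.576 (0.224 to 1.38). Krt85 was thus the 1 hair keratin with more than 9 copies in either library.

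The other 15 keratins had few copies. Their combined copies ran from 2 to 32, and 5 of them had at most 3 copies in each library. Summed, they had 76 copies in Dox+ and 56 in Dox-, a ratio of 0.755 (0.525 to 1.08). The 7 keratins of stratified epithelia had 25 copies in each library. Krt14, a keratin of basal epidermal cells, had 2 copies in Dox+ and 0 in Dox-. The limit taken here for a count of 0 is 3 copies, or 0.513 TPM in Dox-, and the exact 95% interval reached 0.631. Krt1 had 6 and 2 copies, Krt4 had 6 and 3, and Krt17 had 8 and 6. Among the 15, intervals left out 1 for Krt23 and Krt12, both named here after their values were seen. Krt23, a type I keratin, had 24 copies in Dox+ and 8 in Dox-, which is 2.93-fold lower (1.27 to 7.54). Krt12, the type I keratin of the cornea, had 0 copies in Dox+ and 8 in Dox-, at least 2.73-fold higher with 3 copies in place of the 0. The counting interval of its ratio began lower, at 1.75.

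The make-up of the keratin copies differed between the libraries. Krt19 was 40.7% of them in Dox+ (39.2 to 42.3) and 37.3% in Dox- (36.0 to 38.6). Krt7 was 4.69% (4.04 to 5.41) and 10.9% (10.1 to 11.8). Krt85 was 0.0524% (0.00635 to 0.189) and 8.21% (7.5 to 8.97). The shares of Krt7 and Krt85 were thus larger in Dox-, and those of Krt8 (34.9% and 27.0%) and Krt18 (17.7% and 15.6%) were smaller. Type II keratins made up 40.0% of keratin copies in Dox+ (38.4 to 41.6) and 46.3% in Dox- (45.0 to 47.7). The summed level of type I keratins was 1.32-fold higher in Dox- (1.25 to 1.39), and that of type II was 1.71-fold higher (1.60 to 1.82). Without Krt85 the type II ratio was 1.41 (1.32 to 1.5), which overlaps the type I interval. For all keratins the summed ratio was 1.47 (1.41 to 1.54), and 1.35 (1.30 to 1.41) without Krt85.

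**Figure D2:**
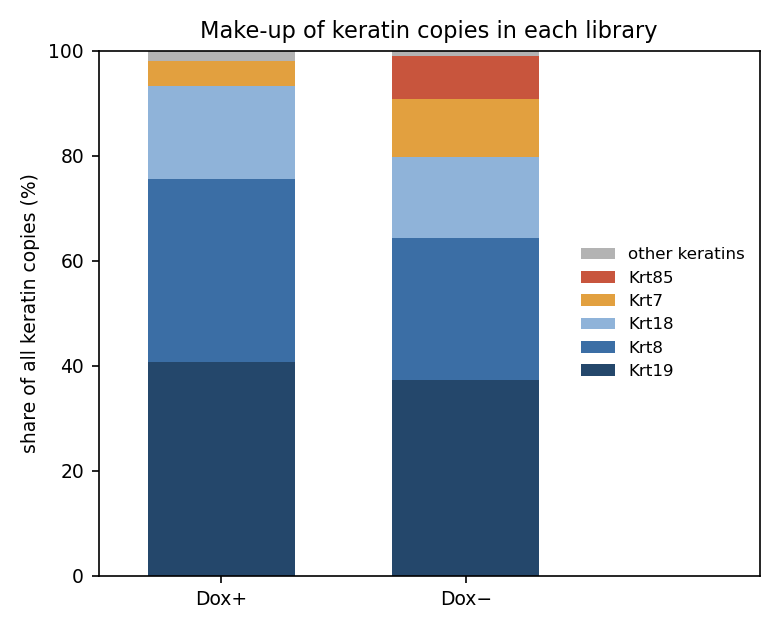
Share of all keratin copies (vertical axis, percent) taken by each keratin in the Dox+ and the Dox- library, each bar being 1 library. Krt7 and Krt85 took 4.69% and 0.0524% of the Dox+ copies (the latter too thin to see) and 10.9% and 8.21% of the Dox- copies.

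The desmosomal cadherins found were Dsg2 and Dsc2, the forms known from simple epithelia. Dsg2 had 129 copies in Dox+ and 233 in Dox-. It was 1.85-fold higher in Dox- (1.49 to 2.31). Dsc2 had 30 and 77 copies, 107 together and so under the limit of 200, and a ratio of 2.63 (1.70 to 4.15). Both cadherins were on the same side, and their summed ratio was 2.0 (1.64 to 2.43). Other desmogleins and desmocollins were not analysed here.

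Of the armadillo proteins of the plaque, Jup had the most copies and did not share the difference of the cadherins. Jup, plakoglobin, also serves in adherens junctions beside beta-catenin. It had 486 copies in Dox+ and 444 in Dox-, or 81.2 and 76.0 TPM. Its ratio was 0.936 (0.821 to 1.07), so these libraries showed no difference beyond counting error. Plakophilins bind the cadherin tails and help gather desmoplakin at the membrane. Pkp4 had 197 and 400 copies, a ratio of 2.08 (1.75 to 2.48). Pkp2 had 79 and 165 copies, a ratio of 2.14 (1.63 to 2.83). The intervals of Pkp4 and Pkp2 lay above that of Jup. Pkp3 was sparse, with 12 and 25 copies and a ratio of 2.13 (1.03 to 4.66). Pkp1, known from stratified epithelia, had 0 and 2 copies. In build NCBIM37, Jup lies at chr11:100230272-100259077 on the minus strand, Pkp4 at chr2:58998907-59193265 and Pkp2 at chr16:16213411-16272805, both on the plus strand.

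The plakins went both ways. Dsp, desmoplakin, the link between the plaque and the keratin filaments, had 98 copies in Dox+ and 238 in Dox-. Its level was 16.4 TPM (13.3 to 19.95) and 40.7 (35.7 to 46.2), a ratio of 2.49 (1.96 to 3.18). Ppl, periplakin, a cornified envelope protein that also binds keratin filaments, had 133 copies in Dox+ and 61 in Dox-. It was 2.13-fold lower in Dox- (1.56 to 2.93), the opposite side from Dsp. With 194 combined copies Ppl lay just under the limit of 200 and is named after its values were seen. Evpl, envoplakin, the envelope partner of periplakin, had 19 and 35 copies and a ratio of 1.89 (1.05 to 3.49). In build NCBIM37, Dsp lies at chr13:38243197-38290446 on the plus strand and Ppl at chr16:5086384-5132574 on the minus strand.

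The promoters of Dsp and Jup are shown for the plaque genes with the largest and the smallest ratio among those compared. Source, build, length and capitals are as for the keratin promoters. The positions are chr13:38151044-38151293 for Dsp (plus strand) and chr11:100397791-100398040 for Jup (minus strand).
Dsp: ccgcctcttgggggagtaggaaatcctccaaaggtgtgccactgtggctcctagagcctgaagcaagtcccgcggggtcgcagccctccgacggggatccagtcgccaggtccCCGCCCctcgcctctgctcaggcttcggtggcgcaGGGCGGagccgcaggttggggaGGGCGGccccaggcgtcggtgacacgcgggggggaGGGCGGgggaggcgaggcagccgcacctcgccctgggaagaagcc
Jup: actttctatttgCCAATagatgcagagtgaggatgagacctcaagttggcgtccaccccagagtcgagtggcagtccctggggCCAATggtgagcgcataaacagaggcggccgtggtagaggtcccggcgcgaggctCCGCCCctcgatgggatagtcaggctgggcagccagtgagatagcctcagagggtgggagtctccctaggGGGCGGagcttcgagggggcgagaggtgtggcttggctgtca
Dsp held GGGCGG 4 times and CCAAT not at all, with 72.4% G or C. Jup held GGGCGG 2 times and CCAAT 2 times, with 62.0% G or C. GGGCGG was thus found before Dsp and Jup alike, and neither window held TATAAA or TGANTCA. Of the 30 members, 15 had a promoter in the RefSeq table.

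**Figure D3:**
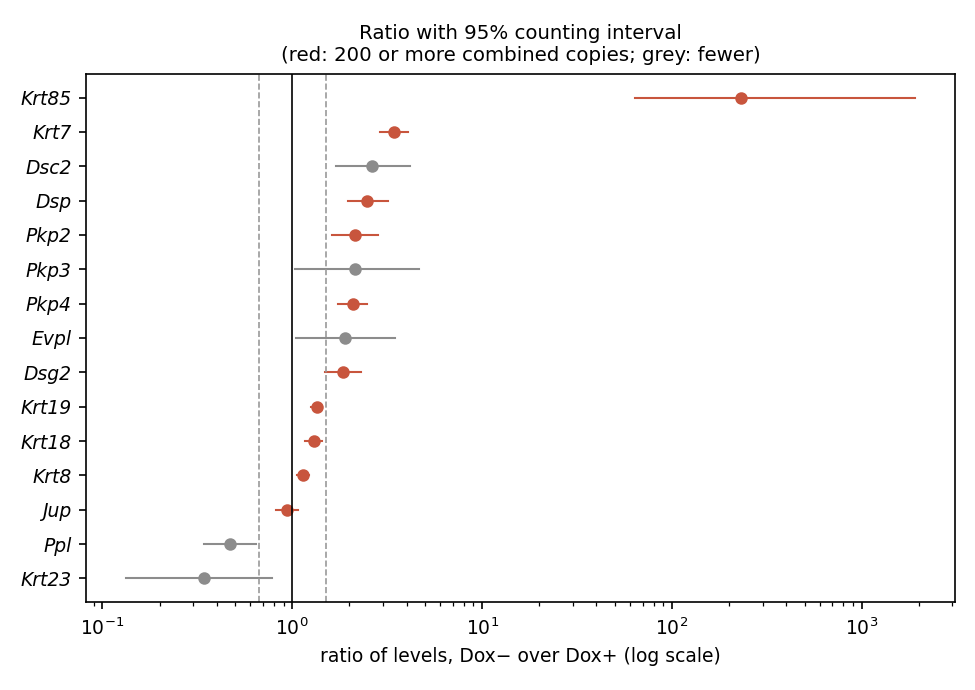
Ratio of levels, Dox- over Dox+ (horizontal axis, log scale), for 15 members, with points for the ratio, bars for the 95% counting interval and dashed lines at 1.5-fold either way; red marks members with at least 200 combined copies. Krt85 (231) and Krt7 (3.43) lie furthest to the right, the interval of Jup crosses 1, and Ppl and Krt23 lie left of it.

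Summed over the 10 desmosomal and envelope genes, the level was 197.6 TPM in Dox+ and 287.5 in Dox-, a ratio of 1.45 (1.35 to 1.57). Without Jup, which held 486 of the 1183 copies in Dox+, the ratio was 1.82 (1.65 to 2.0). The median log2 ratio of the 5 desmosomal genes compared was 1.06, and that of the 5 keratins was 0.43. In Dox+ the order of levels in TPM was Krt19, Krt8, Krt18, Jup and Pkp4, each neighbour outside the other's interval. Below them the intervals of neighbours from Pkp4 through Krt7, Ppl, Dsg2 and Dsp to Pkp2 overlapped. In Dox- the order was Krt19, Krt8, Krt18, Krt7 and Krt85, after which Krt85, Jup and Pkp4 overlapped as neighbours. Levels were also taken per kb of the longest annotated coding transcript of each gene. On that scale Krt19, Krt8 and Krt18 still led, with 164.7, 123.1 and 80.5 TPM per kb in Dox+. Jup had a level of 25.3 in Dox+ and 23.7 in Dox-, and Krt7 one of 7.30 and 25.1. The length taken was 4.09 kb for Krt7 and 1.8 kb for Krt8, so the Krt7 values depend on that choice of transcript. The long transcript of Dsp gave a level of 1.72 and 4.27 per kb.

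The desmosomal genes were also set against the keratins of the same library, a scaling chosen after the data were seen. For 1000 copies of Krt8, Krt18 and Krt19 together, there were 27.5 copies of Dsp in Dox+ and 54.3 in Dox-, a ratio of 1.97 (1.55 to 2.53). Pkp2 had 22.2 and 37.6, a ratio of 1.70 (1.28 to 2.25). Pkp4 had 55.4 and 91.3, a ratio of 1.65 (1.38 to 1.98). These plaque genes, and Krt7 with a ratio of 2.72 (2.29 to 3.25), were thus higher relative to the main keratins too. Dsg2 had 36.2 and 53.2, a ratio of 1.47 (1.17 to 1.84), which no longer reached 1.5-fold. Jup had 137 and 101, a ratio of 0.742 (0.646 to 0.852), so relative to the keratins its interval lay below 1. Krt8, Krt18 and Krt19 set this scale, so 7 of the 10 members were free to differ on it, and of these 7, 5 were higher and none was lower by 1.5-fold. Of all genes compared, 5.85% were higher and 31.2% lower on this scale. The median log2 ratio of all genes was -0.30 on this scale, a shift of -0.33.

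**Figure D4:**
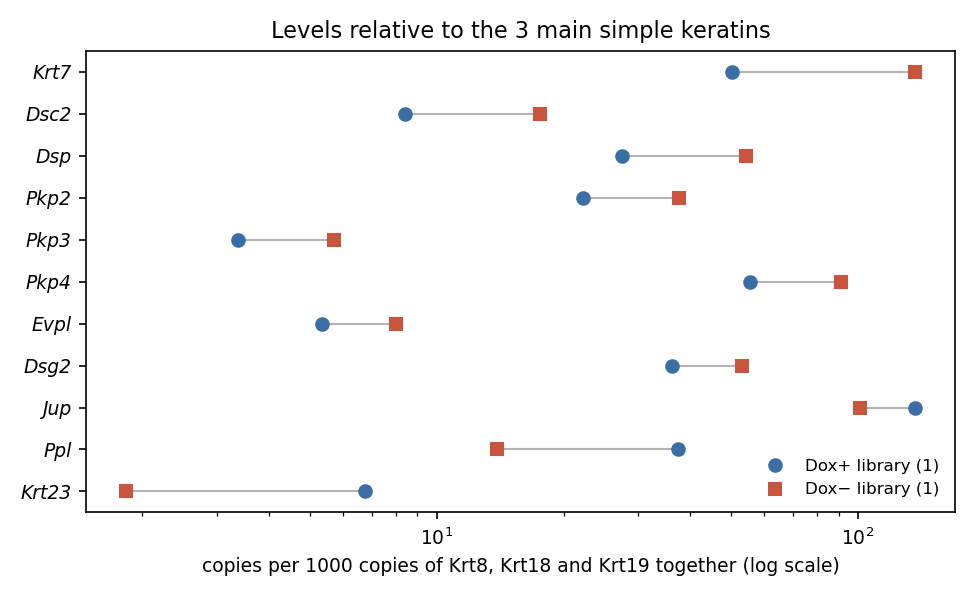
Copies of 11 members for every 1000 copies of Krt8, Krt18 and Krt19 together (horizontal axis, log scale), with circles for the Dox+ library, squares for the Dox- library and a grey line joining them. Dsp moved from 27.5 to 54.3 and Krt7 from 50.3 to 137, while Jup, Ppl and Krt23 were lower in Dox-.

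Other junction and filament genes were counted in the same way, against 15.2% higher and 14.7% lower of all genes compared. Of 15 adherens junction genes listed, 8 were compared, of which 1 was higher and none lower, with a median log2 ratio of 0.27. Their count of 1 higher of 8 was near the share of all genes. Ctnnb1, beta-catenin, had 2319 copies in Dox+ and 1734 in Dox-, 1.31-fold lower. Vcl, vinculin, had 1518 and 1025 copies, 1.45-fold lower. Cdh1, E-cadherin, the adherens cadherin of epithelia, had 703 and 909 copies, a ratio of 1.32 (1.20 to 1.46), close to that of Krt19. Hemidesmosomes anchor keratin filaments to the basement membrane, and of 12 of their genes and other plakins 8 were compared. Of these 8, 3 were higher and none lower, with a median log2 ratio of 0.37. Cd151, Macf1 and Dst, those with the most copies, had ratios of 1.13, 0.978 and 1.38. Of the other intermediate filaments, 6 were compared, with none higher, 3 lower (2 with table totals as library sizes, where Vim fell below 1.5-fold) and a median log2 ratio of -0.36. Des, the desmin of muscle, had 4647 and 2578 copies, 1.76-fold lower in Dox-. Vim, the vimentin of mesenchymal cells, had 2612 and 1680, 1.52-fold lower. Lmna, a nuclear lamin, had 1225 and 1098, 1.09-fold lower.

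The genes listed as cornified envelope and keratin modifiers that had enough copies to compare were on the side of Krt7 and Krt85. Not all of them are envelope proteins or keratin enzymes, as the list also holds Perp, Krtcap2 and Krtcap3. Of 37 listed, 6 were compared, and all 6 were higher in Dox- (5 under TMM or median-ratio scaling, where Perp fell below 1.5-fold). The background was 15.2% of all genes compared, and the median log2 ratio of the 6 was 1.22. Padi1 and Sfn reached 200 combined copies through Dox- alone. With a filter of 100 combined copies 7 of 8 were higher and 1 lower. Sprr2f, a small proline-rich envelope precursor known from mouse uterus, had 904 copies in Dox+ and 2936 in Dox-, a ratio of 3.33 (3.09 to 3.59). Padi1, a peptidylarginine deiminase that citrullinates proteins including keratins, had 15 and 395 copies, a ratio of 27.0 (16.2 to 48.7). Sfn, an epithelial 14-3-3 protein that binds keratin, had 49 and 388 copies, a ratio of 8.11 (6.01 to 11.2). Perp, a membrane protein of the desmosome, had 306 and 453 copies and a ratio of 1.52 (1.31 to 1.76). Krtcap2 had 640 and 975 copies and a ratio of 1.56. Among those with fewer than 200 combined copies, Padi2 had 43 and 135 copies, a ratio of 3.22 (2.27 to 4.64). Padi4 had 33 and 64, a ratio of 1.99 (1.29 to 3.12), and Sprr1a 8 and 53, a ratio of 6.79 (3.21 to 16.5). The other way, Sprr2g, a relative of Sprr2f, had 86 and 51 copies, 1.65-fold lower in Dox- (1.15 to 2.38). Tchp had 39 and 26 copies, and Tchh had 12 and 5, with ratio intervals of 0.399 to 1.15 and 0.118 to 1.30 that include 1.

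Transcription factors of epithelia and hair were split. Of 27 listed, 9 were compared, with a median log2 ratio of 0.53. Of these 9, 4 were higher and 3 lower, against 15.2% and 14.7% of all genes compared. Elf3, Sox9 and Klf4, all higher, reached 200 combined copies through Dox- alone, and Lef1, which was lower, through Dox+ alone. Elf3, an epithelial ETS factor, had 185 copies in Dox+ and 1083 in Dox-, a ratio of 6.00 (5.13 to 7.05). Sox9 had 51 and 220 copies, a ratio of 4.42, and Klf4 had 86 and 279, a ratio of 3.32. Those 3 were higher in Dox-, the side of Krt7 and Dsp. Lef1, a Wnt-pathway factor known from hair follicles, had 210 and 9 copies, 22.8-fold lower in Dox-, the opposite side from Krt85. Msx1, a uterine homeobox factor, had 1757 and 727 copies, 2.36-fold lower.

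Markers of uterine cell types also differed between the libraries, those of the epithelium mostly on the side of the members. All 15 uterine epithelial markers without keratins or desmosomal genes had at least 200 combined copies, with a median log2 ratio of 1.40. Of the 15, 11 were higher and 2 lower, against a background for every marker list of 15.2% and 14.7% of all genes compared. Lcn2, Prom1, Wnt7a and Elf3 reached 200 combined copies through Dox- alone. The list, like the others, was chosen with earlier results of these data known. The summed level of the 15 was 1182 TPM in Dox+ and 3247 in Dox-, and none was at 0. Cd24a, Ltf and Cldn7, those with the most copies, had ratios of 5.64, 2.99 and 2.64. Lcn2 (35.5), Elf3 (6.00, also in the transcription factor list), Wnt7a (5.83) and Prom1 (5.60) also had ratios past 3. The other way, Cldn3 had 1482 and 494 copies, 2.93-fold lower, and Cldn4 had 149 and 65, 2.24-fold lower. The summed ratio of the 15, 2.75, or 2.08 without Cd24a, was above the 1.26 of Krt8, Krt18 and Krt19 and below the 3.43 of Krt7. Some single markers lay nearer 1.26 than the sum did, with ratios of 1.05 for St14 (0.901 to 1.22), 1.32 for Cdh1 and 1.80 for Epcam. Of the gland markers 3 were compared, with none higher and 2 lower, and the sum of the 6 analysed was 417 and 160 TPM. Sox17, a transcription factor of the uterine epithelium and its glands, had 1991 and 585 copies, 3.32-fold lower, and without it the sum was 84.5 and 59.7 TPM, 1.42-fold lower. Ttr had 47 and 0 copies, and Cxcl15 had 254 and 134. Aldh1a1 (162 and 172), Foxa2 (35 and 34) and Lif (8 and 9) did not differ beyond counting error. Of 11 mesothelial markers, whose cells also hold Krt8, Krt18 and Krt19, 2 were compared and both were lower, Wt1 with 325 and 157 copies and Rspo1 with 154 and 88. Cldn15, under the limit with 55 and 110 copies, went the other way with a ratio of 2.05 (1.47 to 2.89). The sum of the 11 was 124 and 70.2 TPM, and Bnc1 and Calb2 were at 0 in Dox-. Squamous markers without keratins summed to 90.0 and 79.2 TPM, mostly Fabp5 with 514 and 370 copies. Without Fabp5 the sum of the other 6 was higher in Dox-, with 25 and 93 copies, a ratio of 3.81 (2.43 to 6.19). Most of it was Sprr1a, also in the envelope list, with 8 and 53 copies, a ratio of 6.79 (3.21 to 16.5). Calml3 and Serpinb5 were at 0 in Dox+, with 3 and 7 copies in Dox-. The intervals of Ly6d (9 and 17 copies), Tgm1 (4 and 11) and Trp63 (4 and 2, the other way) included 1. The 10 myometrial markers summed to 8268 and 5859 TPM, with none higher, 5 lower and a median log2 ratio of -0.65. The 10 stromal markers summed to 9057 and 10359, with 2 higher, 4 lower and a median log2 ratio of -0.25. Without Col1a1, the most abundant, they summed to 5211 and 4593, the opposite direction. Endothelial markers summed to 220 and 161, or 145 and 124 without Cdh5, the most abundant. Leukocyte markers summed to 82.5 and 122.7, or 51.5 and 91.7 without Csf1r, the most abundant. Of the markers of the early embryo only Eomes was analysed here, with 15 and 2 copies. The part of these shifts in the keratin and desmosome values was not tested.

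**Figure D5:**
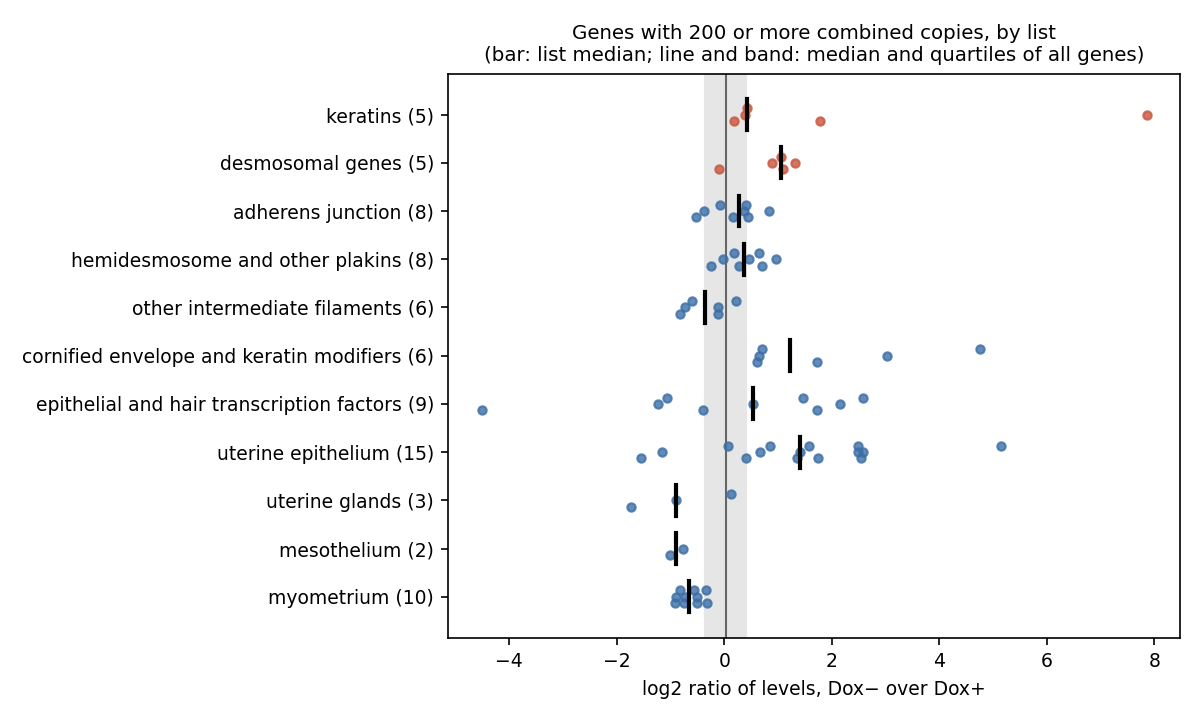
Log2 ratio of levels, Dox- over Dox+ (horizontal axis), for each gene with at least 200 combined copies, by list, with the number of genes in brackets, a black bar for the list median, and a line and grey band for the median and quartiles of all 6547 genes. The medians of desmosomal genes (1.06), the cornified envelope and keratin modifier list (1.22) and uterine epithelial markers (1.40) lie right of the band. That of myometrial markers (-0.65) lies left of it.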

How the data were processed

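Total RNA of 3 pooled uteri per condition was profiled by digital gene expression (DGE) tag sequencing in 1 Dox+ and 1 Dox- library. The authors dropped adaptor-only, low quality and single-copy tags, matched the rest to mouse reference transcripts and kept unambiguous tags. The deposited counts are the copies per gene in each library, not normalized. The deposited TPM values are copies per 1000000 clean tags, with no length correction and 0.01 at 0 copies, and were used only to recover the clean tags of each library. Columns with the authors' ratios, log2 ratio, P-value and FDR were not used. The submitters' processing notes name CASAVA and mm9. Aligner and restriction enzyme are not given in the sources used here. The labels mention mRNA fragmentation, which was not resolved against tag profiling, so copies were read as tags and levels also given per kb. Each keratin's copies rest on the authors' handling of tags shared within the family.

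Levels carry exact Poisson intervals, and ratios and shares carry exact Clopper-Pearson intervals at 95%. Ratios relative to Krt8, Krt18 and Krt19 together carry instead exact conditional 95% intervals of an odds ratio. A count of 0 was replaced by 3 copies for a fold, given as a lower bound. Counts of 1 to 3 were kept, a departure from the written design. Genes with at least 200 combined copies were compared at 1.5-fold. Members, lists and tests were chosen with earlier results of these data known. The text names every member with at least 200 combined copies, lower members by range unless their values stood out, and from each list the 3 genes with the most copies and those at least 3-fold apart. For the marker lists of stroma, myometrium, endothelium and leukocytes sums alone are given. The values of 2 listed genes are not reported here. Alternatives were TMM (edgeR 4.0.16) and median-ratio (DESeq2 1.42.0) scaling, table totals, filters of 100, 20 and none, 2-fold, a log2 ratio above 0.5, an Audic-Claverie FDR below 0.05, a pseudocount of 1 TPM, and the mean. Positions and lengths came from GENCODE on NCBIM37, and 29 of 30 members matched. Python 3.11.15, scipy 1.17.1 and R 4.3.3 were used, and the code was tested on simulated data.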

Additional observations from a re-analysis of the deposited data

How the results depend on the processing

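With 1 library per condition no library could be left out. No paired analysis was possible because each condition had 1 library. Under TMM, median-ratio and table-total scaling, 2-fold, a log2 ratio above 0.5, the FDR and a pseudocount, the count of higher members stayed at 5 or 6 and that of lower members at 0. With a filter of 100 combined copies 7 of 12 members were higher and 1 lower, against 16.6% and 15.6% of all genes. With 20 it was 9 and 2 of 15, against 19.7% and 18.7%. Without a filter it was 11 and 4 of 30, against 19.8% and 19.5%. Genes with at most 3 copies in each library have no ratio and could not be counted either way. Only 24 of the 30 members had a ratio. The median log2 ratio was 0.97, against 0.44 without a filter over 24 genes, 1.49 for the mean, and 0.89 without Krt85, which was tried after the data were seen. Of 40 values of single members under the planned settings, 39 stayed within their counting interval and none reversed. For the 3 scalings this was fixed in advance and is no check. Each moves every gene by the same log2 amount (-0.024 for TMM, -0.035 for median-ratio and 0.038 for table totals), which is smaller than the intervals allow. With a pseudocount of 1 TPM Krt85 had a log2 ratio of 5.87 in place of 7.85. At 2-fold the higher counts of the adherens junction, hemidesmosome and cornified envelope lists were 0, 0 and 3 in place of 1, 3 and 6, and the lower count of other intermediate filaments was 0 in place of 3. Without a filter those counts were 4, 5, 10 and 7, and the transcription factors had 8 higher and 5 lower in place of 4 and 3. Of the 13 adherens junction and 15 envelope genes analysed, 1 and 2 were then lower. Depth limits members with few copies: 3 copies, the limit taken for a count of 0, are 0.501 TPM in Dox+ and 0.513 in Dox-.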
